A study of Mus musculus with 4 samples.

Results

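Genes of the red cell membrane skeleton, 4 in number (Slc4a1, Ank1, Epb4.9 and Epb4.2), were examined for KLF1 binding in mouse fetal liver. Each was represented by a window on the mouse build mm9: Slc4a1 by chr11:102190000-102250000, Ank1 by chr8:24070000-24280000, Epb4.9 by chr14:70980000-71060000 and Epb4.2 by chr2:120830000-120880000. The members were the authors' KLF1 peaks that start in a window and the aligned reads that lie in it. The 4 windows covered 400 kb and held 5 of the 945 listed peaks: 2 in the Slc4a1 window, 2 in the Ank1 window, 1 in the Epb4.9 window and 0 in the Epb4.2 window.

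In ChIP-seq (chromatin immunoprecipitation with sequencing) an antibody pulls down a protein together with the DNA it occupies, and the reads of that DNA pile up at bound sites. Both groups, KLF1 ChIP and input DNA that was not precipitated, came from fetal liver taken at E14.5, a stage at which the liver makes most red cells of the embryo. Per the labels, 4 livers lacking Klf3 (strain Balb/c Klf3 -/-, female) were homogenized and pooled, and the antibody was a rabbit polyclonal to KLF1. The input carried the same Klf3 deletion, and livers with intact Klf3 were not analysed here. The labels call the cells erythroid, which could not be checked because no expression was measured and the strained livers were not described as sorted. Each group was run on SOLiD System 2.0 and 3.0, and the deposited files held both runs combined. Each group was therefore handled as 1 combined library, and no value below has a replicate error. The ChIP library held 17438921 aligned reads and the input library 47356494, or 2.72 times as many.

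The red cell membrane is held in shape by a meshwork of spectrin on its inner face. Band 3, the anion exchanger encoded by Slc4a1, spans the membrane and anchors this meshwork through ankyrin, the product of Ank1, with protein 4.2, the product of Epb4.2, bound to both. Epb4.9, now named Dmtn, encodes dematin, which bundles actin at the junctions of the meshwork. Inherited loss of band 3, ankyrin or protein 4.2 causes fragile red cells and hemolytic anemia. KLF1 (EKLF) is an erythroid transcription factor with zinc fingers that binds CACCC-type sequences and is known to activate many genes of the late red cell program.

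Members of the set with an entry in the RefSeq promoter table (build GRCm38.p6) were limited to Epb42, the current name of Epb4.2. Its promoter, chr2:121036828-121037127 on the minus strand, from 250 bases before to 50 after the gene's start, is shown because the Epb4.2 window held no listed peak. Capitals mark the match to AGATAA, a motif of GATA factors.

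Epb42 promoter: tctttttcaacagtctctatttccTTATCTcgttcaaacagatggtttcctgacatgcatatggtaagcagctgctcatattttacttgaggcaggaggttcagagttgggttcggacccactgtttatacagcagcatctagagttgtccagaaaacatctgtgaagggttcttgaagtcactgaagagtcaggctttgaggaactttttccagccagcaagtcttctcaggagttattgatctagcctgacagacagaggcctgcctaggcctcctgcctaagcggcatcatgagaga

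Both strands were searched for CCNCNCCC, a CACCC-type motif of KLF1 in which N is any base, and for AGATAA. The Epb42 promoter held 0 matches to CCNCNCCC, which 49.5% of the 32851 promoters of this length in the table held. It held 1 match to AGATAA, on the opposite strand at positions 25 to 30, starting 226 bases before the gene's start, and 11.2% of all promoters held that motif. These letters describe the printed 300 bases alone, whose coordinates are of another build than the windows, and their place in the Epb4.2 window was not determined. No sequence is given for the peaks, since a genome of build mm9 was not used here. For the same reason peaks are placed by position and by distance from each other, and not by exon, intron or promoter.

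The peaks were denser in these windows than along the genome, at 12.5 per Mb against 0.377 per Mb over tiles with at least 100 input reads. Of all tiles of 60 kb, 2.05% held a listed peak and 0.177% held 2 or more, as the Slc4a1 window did. Among tiles of 210 kb, the length of the Ank1 window, 6.46% held a peak and 1.04% held 2 or more. At 80 kb, the length of the Epb4.9 window, the share with a peak was 2.65%. It was 1.71% at 50 kb, the length of the Epb4.2 window, so most tiles of that length were also without a peak. The genes were chosen with results of these data in view, and these shares are given as background only.

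**Figure D1:**
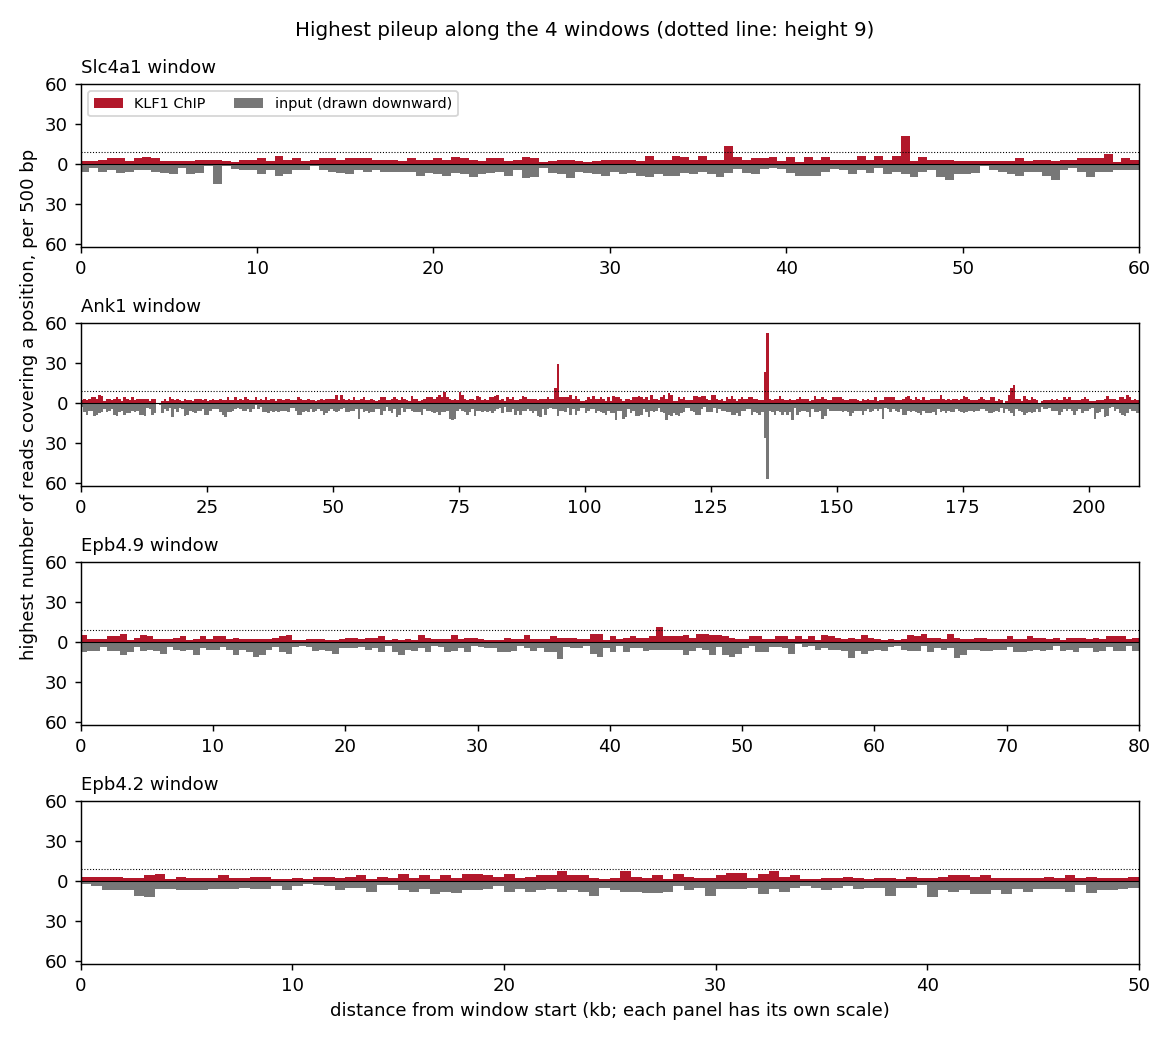
Highest number of reads covering any position in each 500 bp of the 4 windows, with KLF1 ChIP drawn upward and input downward against distance from the window start in kb, not scaled to library size. ChIP rises above input at the listed peaks of Slc4a1, Ank1 and Epb4.9, 1 Ank1 site is high in both libraries, and the Epb4.2 window stays under the dotted line at height 9.

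The deposited height of a peak was the number of ChIP reads covering its summit, each read extended by 100 positions from its 5' base, and the listed intervals were the stretches at that height. Heights in the whole list ran from 9 to 57 with a median of 11. Heights and the ratios of ChIP to input at the summit are descriptions, since these reads chose the peaks. Ratios are scaled to the libraries' aligned reads, and their exact 95% intervals cover counting error only.

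Slc4a1, which encodes band 3, had peaks at chr11:102226763-102226769 and chr11:102236652-102236656, starting 9889 bp apart. The peak at 102236652 had a height of 21, a level that 99 of the 945 peaks (10.5%) reached or passed. Against its 21 ChIP reads stood 1 input read, a ratio of 57.03 (95% interval 9.17 to 2358). The single input read makes the upper limit very wide. The peak at 102226763 had a height of 13 with 2 input reads, a ratio of 17.7 (4.00 to 161). Its height was reached or passed by 330 peaks (34.9%).

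Ank1, which encodes erythroid ankyrin, held the tallest listed peak of the set at chr8:24164688-24164690. Its height of 29 was reached or passed by 30 peaks of the list (3.17%), against 3 input reads, a ratio of 26.3 (8.14 to 135). A second peak lay at chr8:24255008-24255081, 90320 bp away. It had a height of 13 like the lower Slc4a1 peak, but 8 input reads covered its summit. Its ratio was 4.41 (1.70 to 12.3), which made it 1 of 15 listed peaks under 5-fold at the summit, while 98.4% of the list stood at 5-fold or more. Measured against the input 1 to 5 kb to each side, a control chosen after seeing the data, its height was 10.7 times the expected 1.21 reads. By the same control the lower Slc4a1 peak stood at 10.2 times and the Epb4.9 peak at 10.03 times, and the list's median was 12.2 times. The taller peaks of Ank1 and Slc4a1 reached 26.9 and 19.4 times. Expected heights of the 5 peaks were alike, at 1.08 to 1.27 reads, so this measure largely follows the height. It leaves out the input reads at the summit and does not bear on the 8 that covered this one.

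Epb4.9, which encodes dematin, had 1 peak, at chr14:71023913-71023916. Its height of 11 equalled the median of the list, against 5 input reads, a ratio of 5.97 (1.91 to 21.9). It was the lowest listed peak of the set.

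**Figure D2:**
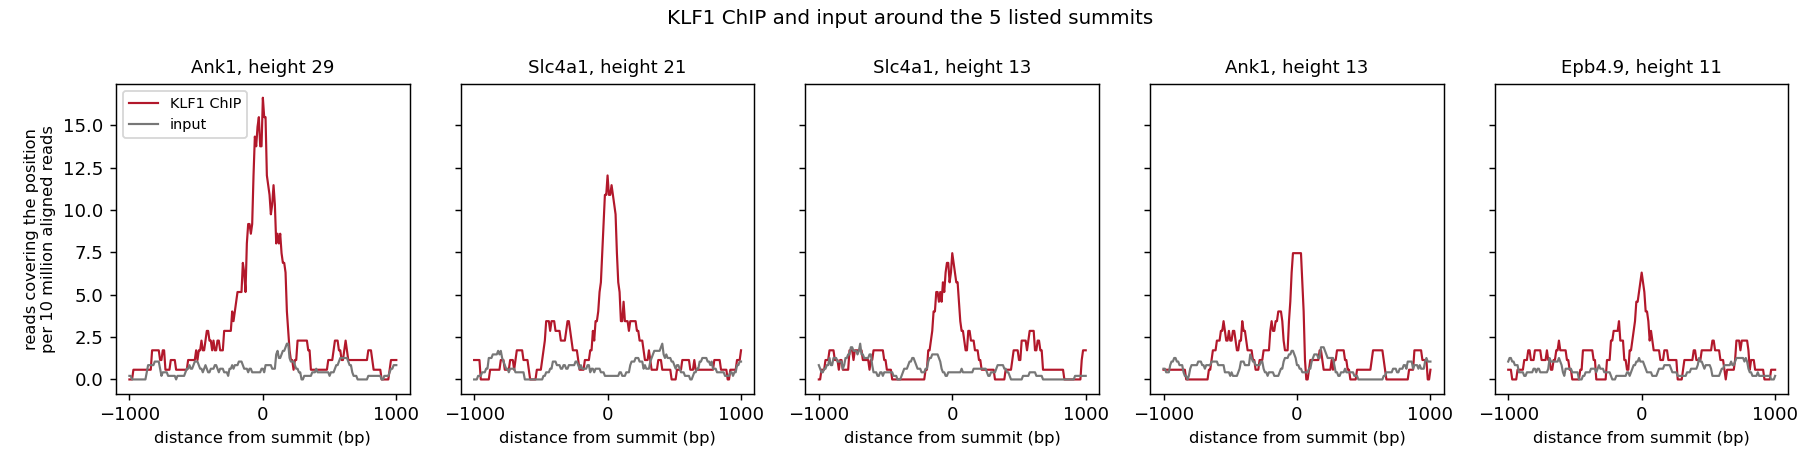
Reads covering each position, scaled to the aligned reads of each library, within 1000 bp of the 5 listed summits, for KLF1 ChIP (red) and input (grey), with reads extended by 100 positions. The ChIP profile of the Ank1 peak of height 29 is the tallest and is broader than that of the Slc4a1 peak of height 21, and the Ank1 peak of height 13 has a flat top.

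The peaks also differed in breadth. At 50% of its height the tallest Ank1 peak was 217 bp wide and the Slc4a1 peak at 102226763 was 200 bp wide, widths of 200 bp or more that 10.4% of listed peaks had. The Slc4a1 peak at 102236652 was narrower, at 124 bp, although taller than its neighbour. The widths of the Epb4.9 peak (106 bp) and of the Ank1 peak at 24255008 (103 bp) were below the list's lower quartile of 109 bp, where the median was 128 bp. The listed interval of that Ank1 peak was 74 positions wide, and those of the other members were 3 to 7.

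Reads that start over 100 and up to 300 bp outside the listed interval do not cover the summit and so did not set the height. Their excess over the libraries' share was tested by a one-sided exact binomial test with Benjamini-Hochberg adjustment over all 945 peaks, of which 275 (29.1%) passed at 0.05. This test compares 2 libraries and not conditions. Of the 5 peaks 2 passed, the taller peak of each of the Slc4a1 and Ank1 windows. Around the Slc4a1 peak at 102236652 there were 18 ChIP and 10 input reads, a ratio of 4.89 (2.14 to 11.9, adjusted exact binomial p = 0.000552). Around the tallest Ank1 peak there were 25 ChIP and 16 input reads, a ratio of 4.24 (2.18 to 8.51, adjusted exact binomial p = 9.9e-05).

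The other 3 peaks did not pass the flank test. The Epb4.9 peak had 10 ChIP and 9 input reads in its flanks, a ratio of 3.02 (1.10 to 8.39, adjusted exact binomial p = 0.0506), and so lay just beyond the threshold. The Ank1 peak at 24255008 had a flank ratio of 1.92 (0.835 to 4.26, adjusted exact binomial p = 0.146). The Slc4a1 peak at 102226763 had a ratio of 1.75 (0.667 to 4.33, adjusted exact binomial p = 0.263). With flanks reaching out to 500 bp, 4 of the 5 passed, and 283 of all 945 listed peaks did. The 4 included the Ank1 peak at 24255008 (adjusted exact binomial p = 0.0493) and the Epb4.9 peak (adjusted exact binomial p = 0.0363). The Slc4a1 peak at 102226763 again did not pass (p = 0.173, same exact test).

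Farther out the ratio over the 5 peaks together came closer to 1. Beyond 300 and up to 1000 bp the 5 peaks together held 127 ChIP and 193 input reads, a ratio of 1.79 (1.42 to 2.25), and single peaks ranged from 1.46 to 2.29. The Slc4a1 peak at 102226763 was the exception to the fall, with 1.95 (1.09 to 3.44) there against 1.75 nearer the summit. The whole list stood at 1.22 there. From 1 to 5 kb the ratio over the 5 peaks was 1.03 (0.922 to 1.14), the same to 2 decimals as over the list (1.03).

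**Figure D3:**
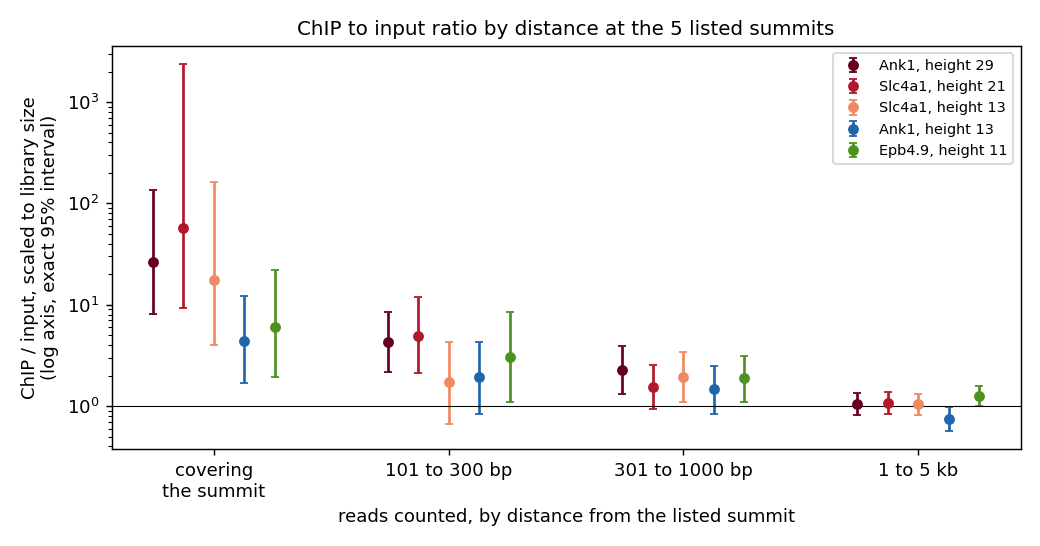
ChIP to input ratio, scaled to library size on a log axis, at the 5 listed summits for reads covering the summit and for reads that start over 100 to 300 bp, over 300 to 1000 bp and 1 to 5 kb from the listed interval. Points are single peaks and bars are exact 95% intervals for counting error, and ratios fall from between 4.41 and 57.03 at the summits to between 0.749 and 1.25 at 1 to 5 kb.

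Fragments bound at a site give forward reads on its left and reverse reads on its right. Within 300 bp to the left of the 5 summits 67 ChIP reads were forward and 34 reverse, and to the right 22 were forward and 64 reverse. The forward share was thus 66.3% on the left and 25.6% on the right, against 72.4% and 28.2% over the whole list. These counts include the reads that cover the summits and set their heights. With reads extended from the 5' base, such a read is forward if it starts on the left and reverse if on the right. The split is thus partly fixed by the choice of peaks, and it is given as a description only. Among input reads at the same 5 sites, which did not set the heights, the forward share was 45.7% on the left and 49.1% on the right. At the Slc4a1 peak at 102236652 the ChIP reads split 15 forward to 5 reverse on the left and 2 to 18 on the right. The tallest Ank1 peak split 25 to 13 on the left and 13 to 20 on the right. At the Ank1 peak at 24255008 the counts were 9 to 8 on the left and 4 to 7 on the right. The Slc4a1 peak at 102226763 had 8 to 6 and 1 to 12, and the Epb4.9 peak 10 to 2 and 2 to 7. On the right, reverse reads outnumbered forward reads at all 5 peaks, and on the left forward reads outnumbered reverse reads at all 5, by 1 read at the Ank1 peak at 24255008.

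Bins across the whole genome were laid without use of the peak list. Those at listed summits hold the reads that chose the peaks, so their p-values are no independent support for these peaks. The same one-sided exact binomial test was run on all 4825052 bins of 500 bp with at least 1 read, of which 470 (0.00974%) passed after adjustment over all bins. In the 4 windows 4 of 799 bins passed, 2 in the Slc4a1 window and 2 in the Ank1 window. Bins of the other windows did not pass, although 11 bins in the Epb4.9 window and 2 in the Epb4.2 window had an unadjusted p under 0.05 (6.88% and 2.00% of their bins, against 3.71% of all bins).

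Of the 4 bins that passed, 3 held a listed summit. The bin at the tallest Ank1 peak held 65 ChIP and 22 input reads, a ratio of 8.02 (4.88 to 13.7, adjusted exact binomial p = 2.73e-15). That at the Slc4a1 summit of height 21 held 39 and 14, a ratio of 7.56 (4.02 to 15.1, adjusted exact binomial p = 7.81e-08). At the other Slc4a1 summit there were 28 and 17, a ratio of 4.47 (2.36 to 8.71, adjusted exact binomial p = 0.00991). The call at this last site depended on how the bins were laid. With bins moved by 250 bp its adjusted exact binomial p was 0.773, and with bins of 1000 bp it was 0.162. The Epb4.9 peak's bin, with 18 ChIP and 10 input reads, had a ratio of 4.89 (2.14 to 11.9) and an adjusted exact binomial p of 0.245. The Ank1 peak at 24255008 lay at a bin's edge. Its bin held 15 ChIP and 19 input reads with an adjusted exact binomial p of 1, and with bins moved by 250 bp there were 26 and 19 reads (p = 0.110, same exact test).

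The fourth bin that passed lay in the Ank1 window, away from both listed peaks, from 24206000 to 24206499. It held 87 ChIP and 98 input reads, a ratio of 2.41 (1.79 to 3.25, adjusted exact binomial p = 8.89e-05). At 24206105, 52 ChIP reads and 53 input reads covered a single position, a ratio of 2.66 (1.78 to 3.98). By height this site exceeded every listed peak of the set, but the input was piled up there as well. As many input reads or more were held by 282 bins of the genome, this one included, where the median bin held 9, and it was the only bin of the 4 windows with over 60. Among the 550 such bins of the genome 97 passed the test. A further stretch of height 11, with 12 input reads, lay beside it at 24205902. Reads were counted at most once per position and strand, which limits counts at so dense a site. Equal counts in both libraries give a scaled ratio of 2.72. The parts that this limit and the input pileup have in the bin's call were not tested.

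Outside listed peaks and this site, pileups in the windows were low. The next highest unlisted sites in the Ank1 window, at 24142055 and 24145452, had a height of 8 with 4 and 3 input reads. In the Slc4a1 window the highest was 7, at 102248220, with 2 input reads and a flank ratio of 0.543 (0.0579 to 2.55). The Epb4.9 window had 6 sites of height 6, with 2 to 5 input reads.

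Epb4.2, which encodes protein 4.2, had no listed peak in its window. The highest pileup was 7, at 3 sites. At 120862832 it stood over 1 input read, a ratio of 19.01 (2.44 to 857) by the few reads at the summit. The flanks of this site gave 8 ChIP and 16 input reads, a ratio of 1.36 (0.503 to 3.36). The bin holding it had the lowest unadjusted p of the window, with 15 ChIP and 16 input reads and a ratio of 2.55 (1.17 to 5.50, unadjusted exact binomial p = 0.0086, adjusted p = 1). The sites at 120855681 and 120852814 stood over 3 and 6 input reads.

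A listed peak lay just outside the Epb4.2 window, 1894 bp past its end, at position 120881894. It had a height of 12 with 3 input reads, a ratio of 10.9 (2.93 to 59.98). Its flanks held 3 ChIP and 16 input reads, a ratio of 0.509, with an adjusted exact binomial p of 0.972. With all windows widened by 20 kb on both sides it was the only peak added, for 6 in all.

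The depth of the 4 windows was alike, at 10.1 to 12.4 ChIP and 27.9 to 31.01 input reads per kb, above the medians of their chromosomes. How few reads a bound site could give and still be listed in the Epb4.2 window was not measured.

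Over whole windows, ChIP and input were close to equal. The Slc4a1 window held 745 ChIP and 1796 input reads, a ratio of 1.13 (1.03 to 1.23). It fell to 1.03 (0.942 to 1.13) once reads within 500 bp of the listed peaks were left out, which held 11.5% of its ChIP reads and 3.40% of its input reads. Although the interval with all reads excludes 1, tiles along the chromosome varied more than counting error. Of the tiles of the same length on the same chromosome, 14.1% had a ratio as high as the Slc4a1 window or higher.

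The other windows were at or below 1. Ank1 had 2365 ChIP and 6512 input reads and a ratio of 0.986 (0.941 to 1.03), or 0.946 (0.901 to 0.993) without the reads near its peaks, which were 5.07% of its ChIP reads. Epb4.9 had 808 and 2233 reads and a ratio of 0.983 (0.906 to 1.07). For Epb4.2 the counts were 514 and 1397 and the ratio was 0.999 (0.901 to 1.11). Tiles with as high a ratio or higher made up 58.6%, 67.9% and 53.8% of those on their chromosomes. None of the 4 whole-window ratios lay outside the central 90% of tiles of its length on its chromosome.

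**Figure D4:**
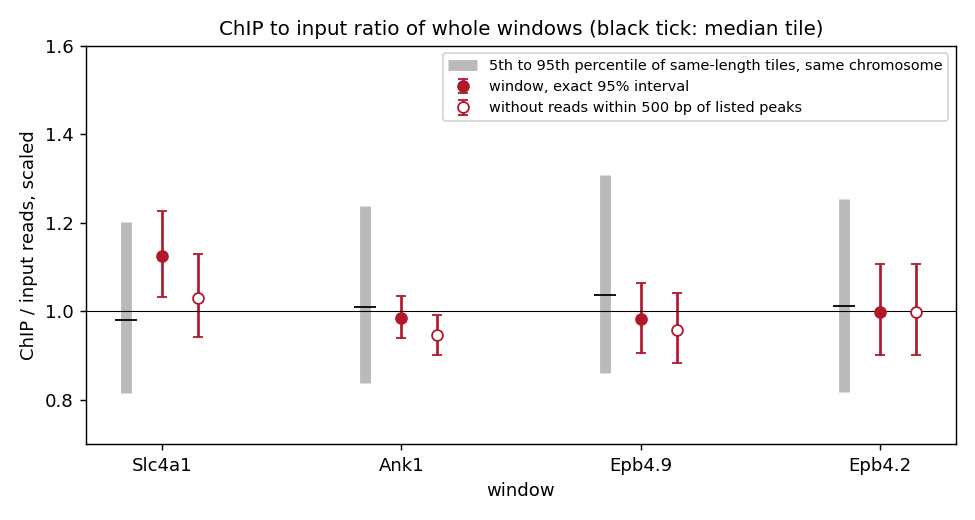
ChIP to input ratio of the reads in each whole window, scaled to library size, with all reads (filled points) and without reads within 500 bp of listed peaks (open points). Bars on points are exact 95% intervals, grey bars span the 5th to 95th percentile of tiles of the same length on the same chromosome with the median as a black tick, and all 4 windows lie within the grey bars.

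Other genes of the red cell membrane could not be assigned peaks without mm9 gene positions. Of a list of 21 such genes, among them beta spectrin (Sptb), protein 4.1 (Epb41), the adducins, which cap actin, and the Rh-associated glycoprotein Rhag, 18 had a promoter in the RefSeq table. CCNCNCCC was present in at least 1 promoter of 12 of them and in 15 of their 24 promoters, where 49.5% of all promoters held it. AGATAA was present in 5 of the 24, where 11.2% of all promoters held it. Matches to CCNCNCCC over all promoters of a gene ran from 0, as in Rhag, Ermap and Tpm1, to 13 in Xk. Sptb had 3 and Add2 had 2.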

How the data were processed

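Per the series' design text, the deposited files combine the SOLiD System 2.0 and 3.0 runs of each group. Per the labels' protocols, libraries carried 80 to 130 bp of DNA. The submitters' processing notes name the build mm9. The alignment tool, peak caller and filters are not given in the sources used here. Read files gave chromosome, 5' position and strand, and 0 reads in either library shared position and strand, so that reads were counted at most once per position and strand. The deposited peak signal in column 4 of the authors' list equalled the pileup of ChIP reads at the listed start, extended by 100 positions from the 5' base, for 945 of 945 peaks, and was not corrected for input. Coordinates are printed as deposited.

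The 4 windows, the gene list and the tests were chosen with earlier results of these data known. From the files were computed read counts per window, tiles, 500 bp bins on the autosomes and chromosome X, summit and flank counts, ratios scaled to all aligned reads, and one-sided exact binomial tests with Benjamini-Hochberg adjustment over all bins or all peaks (threshold 0.05). The bin test was tried on simulated counts with counting error only, drawn around smoothed input counts. Such counts lack any wider spread, so the trial cannot show how the test behaves where real reads vary more. The 95% intervals (exact, Clopper-Pearson) reflect counting error alone. Named sites were all listed peaks in a window and the highest unlisted pileup more than 200 bp from a listed peak; the other unlisted sites named were chosen after their values were seen. A further item of this gene set is not reported here. Alternatives covered window limits, scaling, bins, flanks and read extension. Tests were computed in SciPy 1.17.1 under Python 3.11.15, tables in pandas 2.3.3 with NumPy 2.4.6, and figures in matplotlib 3.10.9.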

Additional observations from a re-analysis of the deposited data

How the results depend on the processing

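Of 89 alternatives over 31 results, 3 ended a call, 2 brought a call and 3 moved a value or count beyond its limit (the 95% interval of a ratio, 1.5 times a count), and 21 were chosen after seeing the data. The number of peaks past the flank test, 2 as planned, was 4 with flanks reaching out to 500 bp and 1 beyond 300 and up to 1000 bp. Of all 945 listed peaks 275 passed as planned, and 283 and 35 passed at these 2 settings. The Slc4a1 window ratio was 1.03 without reads near its peaks. The number of bins past the test, 4 as planned, was 3 with bins of 1000 bp, with bins moved by 250 bp and without bins of over 60 input reads. Over the genome 485 of 2457840, 457 of 4825291 and 355 of 4824502 bins passed at these settings, in that order. The other 81 stayed within these limits but were not all equal to the planned value. The number of peaks was 6 in widened windows. The summit ratio of the Slc4a1 peak at 102236652, 57.03 as planned, was 29.9 with 1 read added and 19.4 against local input. For the Ank1 peak at 24255008 it was 4.41 as planned and 10.7 against local input, which leaves out the reads at the summit. The limits of summit ratios were wide, 9.17 to 2358 for that Slc4a1 peak, so staying within them says little about stability. With reads extended by 150 positions the highest unlisted pileup of the Epb4.2 window was 9, over 7 input reads. No paired analysis was possible because the runs of each group were combined in the files, and for the same reason no run could be left out. The alternative for motifs around summits was not run, since it needs a genome of build mm9. Summits rested on 11 to 29 ChIP reads and 1 to 8 input reads, which limits the precision of every summit ratio.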

Other observations

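The nearest listed peaks beyond the windows were mostly far away. On chromosome 14 the nearest before the Epb4.9 window lay 113785 bp away at 70866215, with a height of 42 over 1 input read, and its flanks up to 300 bp held 20 ChIP and 15 input reads, a ratio of 3.62 (adjusted exact binomial p = 0.00163). This peak was far higher than the Epb4.9 peak of height 11. The nearest peaks on either side of the Ank1 window lay 4074224 and 2447519 bp away. Such gaps were not particular to Ank1, since the list held 0.377 peaks per Mb over the genome's tiles. The nearest peak after the Slc4a1 window lay 2593226 bp away and that after the Epb4.9 window 8643092 bp. On the other side of the Slc4a1 window the nearest was closer, at 880332 bp, as was that of the Epb4.9 window.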
